A study of Mus musculus with 2 samples.

Results

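Phase II conjugation enzymes attach a polar group to drugs, hormones and bile constituents so that they can leave the cell. They are described here as the genes of 3 families: cytosolic sulfotransferases (Sult), UDP-glucuronosyltransferases (Ugt) and glutathione transferases (Gst). Members were found by gene symbol, as Sult or Ugt followed by a digit, or Gst followed by the class letter a, k, m, o, p, s, t or z and a number. The deposited table of 36808 genes held 60 such genes, of which 18 were Sult, 21 Ugt and 21 Gst genes. RNA sequencing was done on primary hepatocytes, liver parenchymal cells isolated from C57Bl6 mice, after the cultures had received 1 µM GW3965 or its solvent DMSO. Both cultures were kept in William E medium with serum, insulin and dexamethasone, a glucocorticoid. The sources used here do not give age, sex, the number of animals or the length of treatment. There was 1 library per treatment, so no difference below has a replicate check. GL, the table's name for the library beside DMSO, was taken to mean GW3965, as the labels hold no other treatment, but this reading is not certain.

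Sulfotransferases move a sulfo group from the donor PAPS to hydroxyl groups of steroids, catechols and phenols. Glucuronosyltransferases sit in the endoplasmic reticulum and add glucuronic acid from UDP-glucuronic acid, for example to bilirubin. Glutathione transferases couple glutathione to electrophiles, and their classes are named by Greek letters. GW3965 is a synthetic compound that activates LXR, the liver X receptors, which respond to oxysterols. LXR binds DNA with RXR at paired AGGTCA-type hexamers spaced by 4 bases, and Sult1e1 is known in mouse liver as an LXR-responsive gene.

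Levels are FPKM, that is fragments scaled to transcript length and sequencing depth. The log2 ratio was taken after adding 1 to each FPKM and is positive where GW3965 was higher, so for low genes it is smaller than the true log2 fold. Genes with at least 1 FPKM in either library are called measured, and 1.5-fold on that scale is the size threshold. From the spacing of low values, depth was estimated as 63200000 fragments (DMSO) and 78500000 (GW3965). These depths give the fragment numbers below as estimates for the shortest annotated coding transcript, and 95% intervals from them (exact binomial) cover counting error only. In this bulk RNA, fewer cells of a type and less RNA per cell cannot be told apart.

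Of the 60 members, 38 were measured, 14 lay above 0 but under 1 FPKM in both libraries, and 8 were listed at 0 in both. Among the 38 measured members, 2 were at least 1.5-fold higher in GW3965, against 1.02% of all 11796 measured genes and 0.827% of 11010 measured protein-coding genes. None of the 38 was at least 1.5-fold lower, against 1.33% and 0.781%. Both higher members were sulfotransferases, Sult1e1 and Sult1d1. The log2 ratio was above 0 in 19 members and below 0 in 19, with a median of 0.02, and the median over all measured genes was 0.01. Of the members 31.6% lay within 1.1-fold, against 63.5% of all measured genes, and 78.9% lay within 1.25-fold, against 90.8%. These shares were not matched for level, and the 38 include 6 Ugt1 genes that share a locus. The authors' deposited table tested 46 members and called 1, Sult1e1, against 0.285% of the 15090 genes tested there and 0.166% called higher. That test compares the reads of 2 libraries, not the conditions. At a p-value under 0.05 before adjustment the authors' deposited table held 6 of the 46 members, against 3.34% of all genes tested.

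**Figure D1:**
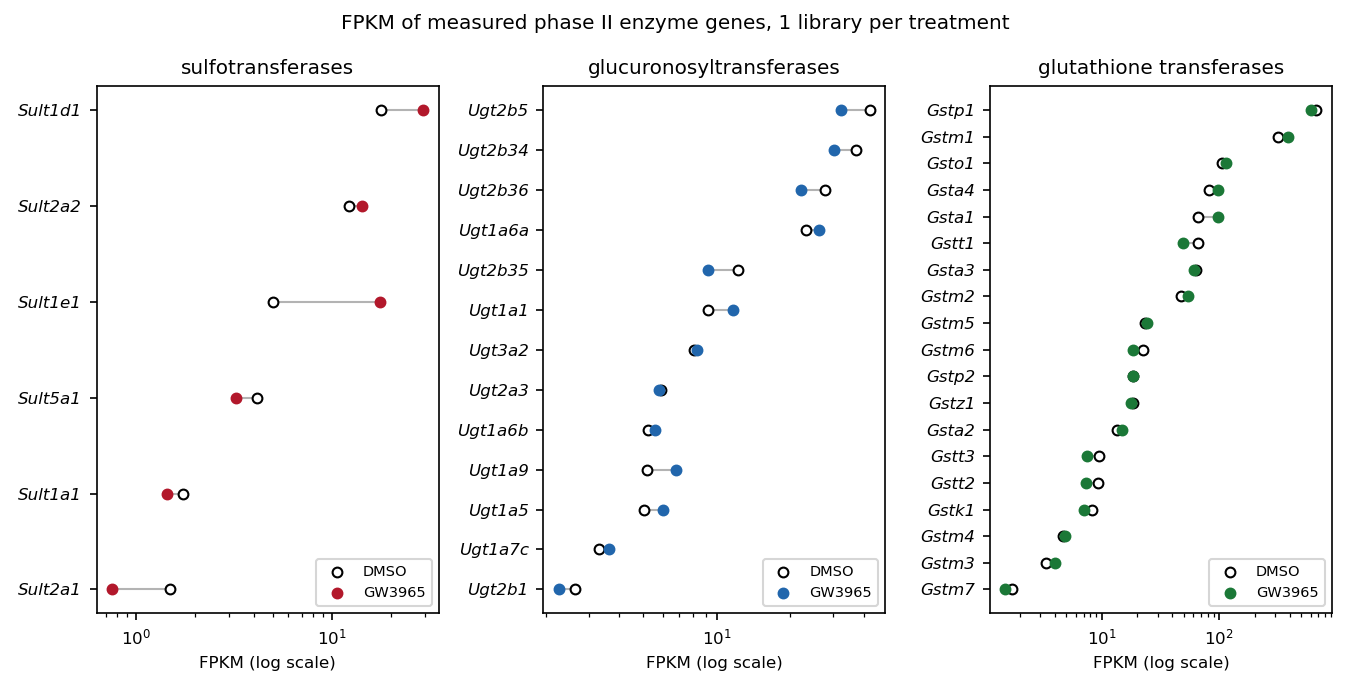
FPKM on a log axis of the 38 measured members, with open circles for the DMSO library and filled circles for the GW3965 library, 1 library each and no error bars. Sult1e1 goes from 5.03 to 17.7 FPKM and Sult1d1 from 17.8 to 29.3, while the circles of most Gst genes nearly overlap.

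The sequence before the start of Sult1e1 and of Sult1d1 is shown because these neighbouring genes were the members past the size threshold. Each line gives the 250 bases before the RefSeq transcript start (GRCm38.p6), 5′ to 3′ on the gene's own strand, which is minus for both. Sult1e1 lies at chr5:87591612-87591861 and Sult1d1 at chr5:87569007-87569256 in that build. Capitals mark AGGTCA or its complement TGACCT in Sult1e1 and the aryl hydrocarbon receptor core GCGTG, read as CACGC, in Sult1d1.
Sult1e1: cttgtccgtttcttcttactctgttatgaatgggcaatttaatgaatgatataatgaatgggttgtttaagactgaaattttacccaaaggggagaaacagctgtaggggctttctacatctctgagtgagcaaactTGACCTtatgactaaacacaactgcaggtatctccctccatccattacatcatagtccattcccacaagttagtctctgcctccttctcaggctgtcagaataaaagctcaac
Sult1d1: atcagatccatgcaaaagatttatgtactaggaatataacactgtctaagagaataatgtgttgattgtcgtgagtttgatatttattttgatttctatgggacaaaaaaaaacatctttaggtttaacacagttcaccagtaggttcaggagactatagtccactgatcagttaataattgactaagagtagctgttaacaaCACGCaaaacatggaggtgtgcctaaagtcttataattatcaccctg
The single hexamer in Sult1e1 lay 113 to 108 bases before the start, and the core in Sult1d1 lay 47 to 43 bases before it. Their neighbour Sult1b1, under 1 FPKM in both libraries with a log2 ratio of -0.06, held both. In Sult1b1 the hexamer, read as TGACCT, lay 123 to 118 bases before the start and GCGTG 196 to 192. Both strands were searched for the direct repeat DR4, AGGTCA followed by 4 bases of any kind and AGGTCA again, and for a looser form, GGTCA, 5 bases of any kind and GGTCA. These were found in 0.0152% and 0.0639% of all 32851 RefSeq windows of this length and in none of the 52 members with a window. With shares this low, a match among 52 windows was unlikely from the outset. Its absence therefore does not show that these genes lack LXR sites. The single hexamer AGGTCA, added after the Sult1e1 sequence was seen, was in 14.0% of all windows and GCGTG in 28.2%. Matches are letters in a window, not sites shown to be bound.

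Sult1e1 encodes the estrogen sulfotransferase, which inactivates estrogens by sulfation (ENSMUSG00000029272, chromosome 5, 88004993 to 88020636, mm9). Its level was 5.03 FPKM in DMSO and 17.7 FPKM in GW3965, or about 345 and 1510 fragments. It was thus 3.53-fold higher in GW3965 without the pseudocount (counting interval 3.14 to 3.98), with a log2 ratio of 1.64. The ratio ranked 17 among all measured genes and 7 among measured protein-coding genes. The authors' deposited table gave Sult1e1 p = 1.45e-12 and q = 4.38e-09. The test score in the authors' deposited table corresponds to a standard error of 0.26 for the log2 fold of 1.82. Sult1e1 shared no 25-base word with the annotated transcripts of another member.

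Sult1d1 encodes a sulfotransferase of catecholamines and related amines (ENSMUSG00000029273, chromosome 5, 87983670 to 87998052, mm9). It is the nearest gene to Sult1e1, with 6940 bases between the loci, and lies on the same strand. Its level was 17.8 FPKM in DMSO and 29.3 in GW3965, about 2550 and 5210 fragments. This is 1.65-fold higher (counting interval 1.57 to 1.73), with a log2 ratio of 0.69. It had p = 0.00332 and q = 0.397 in the authors' deposited table, without a call. Sult1d1 likewise shared no 25-base word with another member.

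The remaining sulfotransferases were not past the threshold. Sult2a2, of the hydroxysteroid sulfotransferases that act on bile acids and DHEA, had 12.2 FPKM in DMSO and 14.3 in GW3965 (log2 ratio 0.21). Its relative Sult2a1 went the other way, with 1.49 and 0.756 FPKM, about 81.5 and 51.3 fragments. The plain ratio of Sult2a1 was 0.507 (counting interval 0.346 to 0.719) and its log2 ratio with 1 added -0.50. With 0.1 added in place of 1, its log2 ratio was -0.90, past the threshold. For Sult2a1 the authors' deposited table held p = 0.0233 and a q of 1.000. Both values are uncertain, as Sult2a2 has 60.5% of its 25-base words in common with Sult2a1, and Sult2a1 has 43.6% in common with Sult2a2. Sult1a1, the phenol sulfotransferase, was low, at 1.73 and 1.44 FPKM (-0.16). Sult5a1 had 4.15 and 3.22 FPKM (-0.29), but its locus in the table holds 152 genes, and the score in the authors' deposited table gives its log2 fold a standard error of 127.

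Other sulfotransferases were near or at the floor of detection. Sult1b1, between the Ugt2 genes and Sult1d1, had 0.568 FPKM in DMSO and 0.506 in GW3965, about 38.0 and 42.0 fragments. Sult1c2 had 0.496 and 0.354 FPKM, about 53.0 and 47.0 fragments, and the counting interval of its ratio, 0.471 to 1.08, spans 1. Sult3a1 had 0.102 and 0.219 FPKM from about 5.74 and 15.3 fragments, with an interval of 0.738 to 6.33. None of these differences was detectable at this depth. Sult4a1 had 0.372 and 0.376 FPKM. Sult6b1, Sult2b1 and Sult2a5 stayed at or under 0.158 FPKM. Sult1c1, Sult2a3, Sult2a4, Sult2a6 and Sult2a7 were listed at 0 in both libraries.

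The sulfotransferases summed to 44.3 FPKM in DMSO and 68.3 in GW3965, 1.54 times as much. Without Sult1e1 and Sult1d1, the other 16 genes summed to 21.4 and 21.3 FPKM. Sult1e1 made up 11.4% of the family's FPKM in DMSO and 25.9% in GW3965, and Sult1d1 40.2% and 42.9%. The order of levels therefore changed below Sult1d1, with Sult2a2 above Sult1e1 in DMSO and below it in GW3965.

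**Figure D2:**
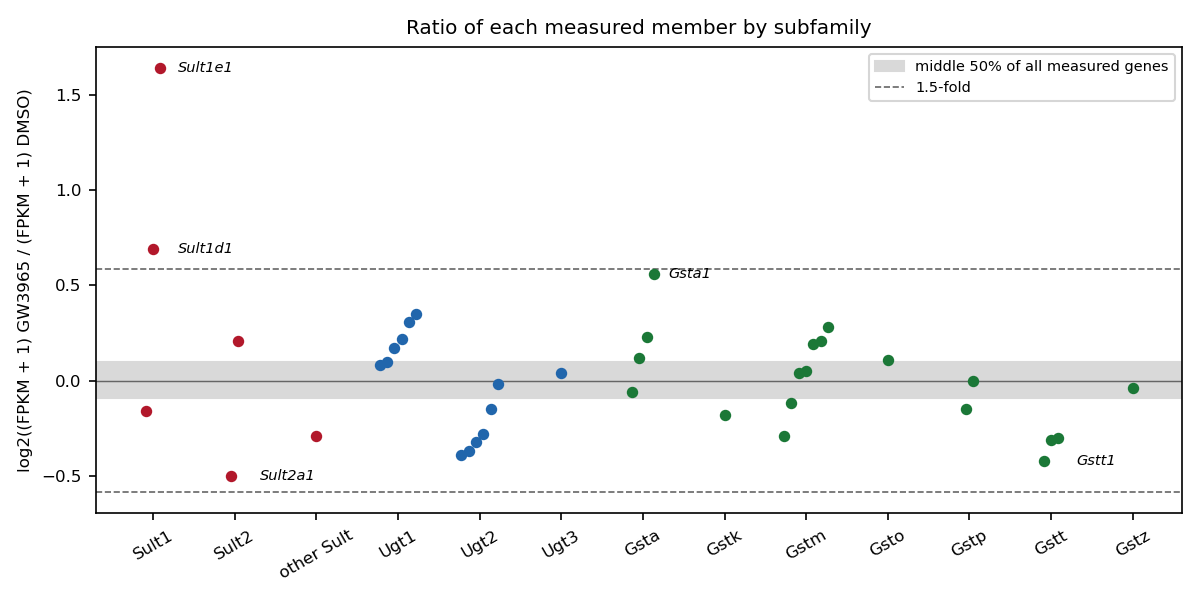
Log2 ratio of GW3965 to DMSO for each measured member (points) by subfamily, with dashed lines at 1.5-fold and a grey band for the middle 50% of all measured genes (-0.09 to 0.10). Sult1e1 and Sult1d1 alone lie past a dashed line; the 6 Ugt1 points lie above 0, and the 6 Ugt2 and 3 Gstt points below it.

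Among the glucuronosyltransferases 13 of 21 genes were measured, and none passed 1.5-fold in either direction. Their log2 ratios ran from -0.39 to 0.35 with a median of 0.04. Without genes that share a locus or at least 50% of their sequence, which leaves out the Ugt1 genes, the Ugt median was -0.28, and that of all members -0.13 in place of 0.02. The subfamilies lay on opposite sides of 0. All 6 measured Ugt1 genes had a ratio above 0 and all 6 measured Ugt2 genes a ratio below 0, against 52.9% above 0 over all measured genes. The Ugt1 sum was 51.2 FPKM in DMSO and 60.1 in GW3965, and the Ugt2 sum was 128 and 102.

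The Ugt1 genes are alternative first exons joined to shared 3′ exons (1 locus, chromosome 1, 89951963 to 90116577, mm9). Ugt1a1, the bilirubin enzyme, had 9.20 FPKM in DMSO and 11.7 in GW3965 (log2 ratio 0.31). Ugt1a6a, which conjugates small phenols, was the most abundant, at 23.2 and 26.1 FPKM (0.17). Both were thus modestly higher in the GW3965 library. Ugt1a9 had 5.17 and 6.84 FPKM (0.35), the largest ratio of the Ugt genes. Ugt1a5 had 5.06 and 6.04 FPKM (0.22). Ugt1a6b and Ugt1a7c stood at 0.08 and 0.10. These 6 ratios are not separate observations, because each gene shared between 52.3% and 85.6% of its 25-base words with another Ugt1 gene. The smallest p among them in the authors' deposited table was 0.421, for Ugt1a1. Ugt1a2 and Ugt1a10 were under 0.2 FPKM in both libraries, and Ugt1a8 was listed at 0.

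The Ugt2 genes form a cluster on chromosome 5 that runs up to the Sult1 genes. Ugt2b enzymes conjugate steroids, bile acids and many drugs. Ugt2b5, the most abundant Ugt gene in DMSO (ENSMUSG00000054630, chromosome 5, 87553981 to 87569365, mm9), had 42.3 FPKM in DMSO and 32.1 in GW3965. Its plain ratio was 0.759 (counting interval 0.728 to 0.791) and its log2 ratio -0.39. Ugt2b5 had p = 0.0301 and a q of 1.000 in the authors' deposited table. It shares 48.8% of its 25-base words with Ugt2b38, which was near 0 in both libraries. Ugt2b35 had 12.2 and 9.25 FPKM (-0.37), Ugt2b36 had 27.8 and 22.1 (-0.32), and Ugt2b34 had 37.0 and 30.2 (-0.28). The plain ratios of these 3 genes lay between 0.758 and 0.817, close to that of Ugt2b5. Ugt2b1 was lower in level, at 2.62 and 2.26 FPKM (-0.15), and Ugt2a3 nearly level at 5.94 and 5.83 (-0.02). Counting intervals of the plain ratio lay below 1 for the 5 measured Ugt2b genes and spanned 1 for Ugt2a3 (0.890 to 1.08). The wider 95% intervals from the authors' test score, in log2, lay below 0 only for Ugt2b5 (-0.76 to -0.04). They spanned 0 for Ugt2b34 (-0.65 to 0.07), Ugt2b35 (-0.86 to 0.05), Ugt2b36 (-0.84 to 0.17), Ugt2b1 (-0.77 to 0.35) and Ugt2a3 (-0.51 to 0.46). Ugt2b37, Ugt2b38 and Ugt2a1 were at or under 0.198 FPKM, and Ugt2b38 rested on about 1 fragment.

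The last 60 bases before the RefSeq start of the 5 measured Ugt2b genes are shown because these genes were lower together. They are read 5′ to 3′ on the gene's strand in GRCm38.p6, with AGGTCA in capitals. The windows are chr5:86926504-86926563 (Ugt2b1, minus), chr5:86906938-86906997 (Ugt2b34, minus), chr5:87000800-87000859 (Ugt2b35, plus), chr5:87092556-87092615 (Ugt2b36, minus) and chr5:87140341-87140400 (Ugt2b5, minus).
Ugt2b1: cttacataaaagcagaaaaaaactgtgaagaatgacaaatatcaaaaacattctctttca
Ugt2b34: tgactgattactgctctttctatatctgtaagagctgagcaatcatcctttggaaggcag
Ugt2b35: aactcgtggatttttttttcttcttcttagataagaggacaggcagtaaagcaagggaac
Ugt2b36: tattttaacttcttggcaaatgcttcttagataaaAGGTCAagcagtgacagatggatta
Ugt2b5: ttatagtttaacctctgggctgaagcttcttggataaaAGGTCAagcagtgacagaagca
The hexamer stood 22 to 17 bases before the start of Ugt2b5 and 25 to 20 bases before that of Ugt2b36. In the 250-base windows it was present in 7 of 19 Ugt genes, 2 of 14 Sult genes and 1 of 19 Gst genes, beside the 14.0% of all windows. Most of these Ugt genes are Ugt2b genes related to each other in sequence, so they are not independent cases. Ugt2b35 carried it farther out, 215 to 210 bases before the start. The windows of Ugt2b1 and Ugt2b34 do not hold these letters. The other Ugt genes with the hexamer were Ugt1a9 (log2 ratio 0.35) and Ugt1a7c (0.10), which share a locus, and the nearly silent Ugt2b37 and Ugt2b38. In Ugt2b37 and Ugt2b38 it stood 39 to 34 and 25 to 20 bases before the start, but both genes were under the minimum FPKM. Any part of the hexamer in these ratios was not tested.

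**Figure D3:**
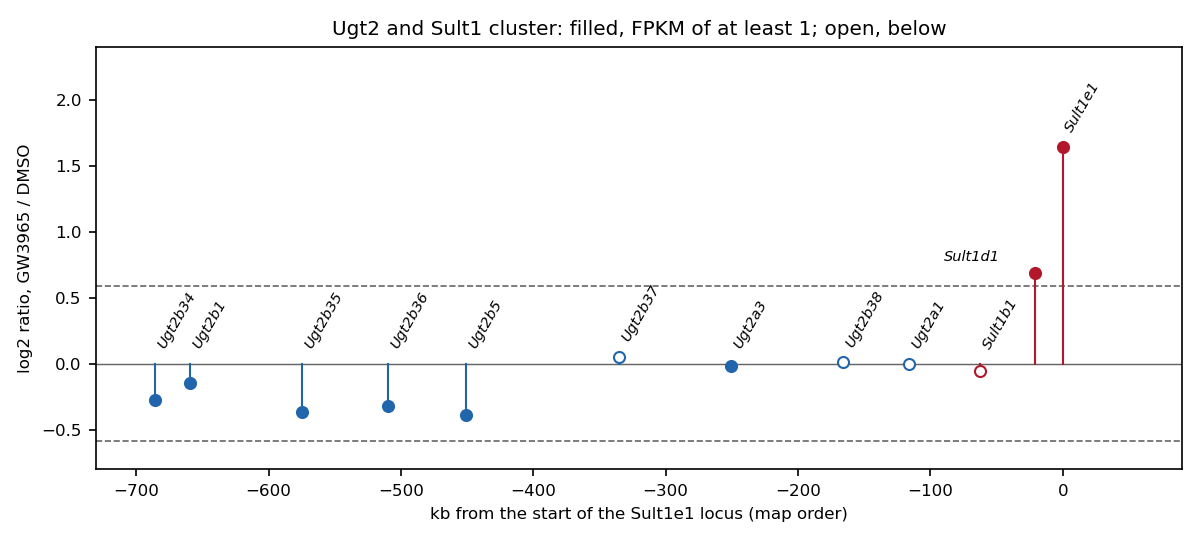
Log2 ratio of the 12 Ugt2 and Sult1 genes of the chromosome 5 cluster (vertical axis) against distance in kb from the start of the Sult1e1 locus, with filled points for measured genes and open points below 1 FPKM. The Ugt2b genes between -686 and -451 kb lie below 0, and Sult1d1 at -21.3 kb and Sult1e1 at 0 lie above the dashed 1.5-fold line.

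In map order the cluster ran from Ugt2b34 to Sult1e1. Within 200 kb of Sult1e1 the other genes were Sult1d1, Sult1b1, Ugt2a1, Ugt2b38, the casein genes Csn1s1, Csn2 and Csn1s2a, and 2 SNORA17 entries. Sult1d1 was the only measured gene among these. The casein genes, which encode milk proteins, were listed at 0 in both libraries. The 2 adjacent genes with higher ratios were thus the only measured genes of this interval, so no other gene could show one. Sult1b1, 16449 bases from Sult1d1, had a log2 ratio of -0.06, but at its level the added 1 FPKM pulls the ratio towards 0. The counting interval of its plain ratio was 0.560 to 1.42.

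Of the remaining Ugt genes, Ugt3a2, of a family that uses other UDP-sugars, had 8.05 FPKM in DMSO and 8.33 in GW3965 (0.04). Ugt3a1 was at 0.326 and 0.244 FPKM. Ugt8a, the ceramide galactosyltransferase of myelin, was listed at 0.

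Glutathione transferases were by far the most abundant of the 3 families. They summed to 1556 FPKM in DMSO and 1596 in GW3965, against 188 and 171 for the Ugt genes. Of 21 genes 19 were measured, 9 with a log2 ratio above 0 and 10 below, and none passed 1.5-fold. Their median was -0.00 and their range -0.42 to 0.56. Gstp1, the pi class enzyme, was the most abundant member (ENSMUSG00000060803, chromosome 19, 4035411 to 4037921, mm9), at 674 FPKM in DMSO and 609 in GW3965 (-0.15). It made up 43.3% of the Gst FPKM in DMSO and 38.1% in GW3965. Gstp2, which shares 56.9% of its 25-base words with Gstp1, had 18.5 and 18.4 FPKM (-0.00).

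Alpha class enzymes act on lipid peroxidation products and steroids. Gsta1 came closest to the threshold (ENSMUSG00000074183, chromosome 9, 78078463 to 78090491, mm9), with 66.3 FPKM in DMSO and 98.2 in GW3965. Its plain ratio was 1.48 (counting interval 1.42 to 1.55) and its log2 ratio 0.56. Gsta1 had p = 0.00217 and q = 0.303 in the authors' deposited table, without a call. Gsta1 has 60.8% of its 25-base words in common with Gsta2, which makes its value uncertain. Gsta2 had 13.6 and 14.8 FPKM (0.12). Gsta4, which removes 4-hydroxynonenal, had 82.7 and 97.0 FPKM (0.23), and Gsta3 had 64.0 and 61.4 (-0.06). The 4 alpha genes thus ran from -0.06 to 0.56.

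Mu class genes lie together on chromosome 3 and are the other abundant Gst class. Gstm1 (ENSMUSG00000058135, chromosome 3, 107815173 to 107820891, mm9) had 318 FPKM in DMSO and 387 in GW3965 (0.28). It made up 20.4% of the family sum in DMSO and 24.3% in GW3965. Its p in the authors' deposited table was 0.166. Gstm2 had 47.3 and 54.7 FPKM (0.21), and Gstm3 had 3.34 and 3.96 (0.19). Gstm6, which shares a locus with Gstm3, had 22.5 and 18.3 (-0.29). Gstm5 at 0.05, Gstm4 at 0.04 and Gstm7 at -0.12 were nearer to 0.

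All 3 measured theta class genes were lower in the GW3965 library. They lie close together on chromosome 10. Gstt1, which acts on small halogenated compounds (ENSMUSG00000001663, chromosome 10, 75246558 to 75261329, mm9), had 65.5 FPKM in DMSO and 48.8 in GW3965. Its plain ratio was 0.746 (counting interval 0.689 to 0.807) and its log2 ratio -0.42, the lowest of the Gst genes. Gstt1 had p = 0.0317 and a q of 1.000 in the authors' deposited table. Gstt2 had 9.28 and 7.31 FPKM (-0.31) and Gstt3 had 9.41 and 7.45 (-0.30). Their counting intervals, 0.676 to 0.919 for Gstt2 and 0.675 to 0.929 for Gstt3, also lay below 1. The wider 95% intervals from the authors' test score, in log2, lay below 0 for Gstt1 (-0.81 to -0.04). They spanned 0 for Gstt2 (-0.84 to 0.15) and Gstt3 (-0.86 to 0.18), which had p = 0.176 and p = 0.204 in the authors' deposited table. These genes share at most 1.27% of their 25-base words with another member. Gstt4 was listed at 0.0202 and 0.0315 FPKM, from at most about 2 fragments.

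The remaining classes hold 1 or 2 genes each, with ratios of the measured genes between -0.18 and 0.11. Gsto1, of the omega class, had 105 FPKM in DMSO and 114 in GW3965 (0.11). Gsto2 in the same locus was under the minimum at 0.200 and 0.314. Gstz1, the maleylacetoacetate isomerase of tyrosine breakdown, had 18.3 and 17.8 FPKM (-0.04). Gstk1, the kappa enzyme of mitochondria and peroxisomes, had 8.20 and 7.09 (-0.18), with a counting interval of 0.753 to 0.993. Its wider 95% interval from the authors' test score, -0.77 to 0.35 in log2, spanned 0. The antioxidant response element core TGACNNNGC, through which NRF2 is known to act on Gst genes, was in the 250-base windows of Gsta3, Gstm5 and Gstm7. That is 3 of 19 Gst genes with a window, against 10.2% of all windows, and 0 of 14 Sult and 0 of 19 Ugt genes.

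Lists of genes that supply or handle the conjugating groups had medians close to 0. All 9 genes of the list for PAPS supply and turnover were measured, none passed 1.5-fold, and their median log2 ratio was 0.03. For Papss2, the main PAPS synthase of liver, 19.7 FPKM were measured in DMSO against 19.0 in GW3965 (-0.05). Of the sulfatase list 5 genes were measured, with a median of -0.01 and none past the threshold. Of 9 measured genes of the list for glucuronic acid supply and use none passed either, with a median of 0.03. Ugdh, which makes UDP-glucuronic acid, had 122 and 116 FPKM (-0.07). The nucleotide sugar transporters Slc35d1 at -0.38 and Slc35d2 at -0.34 were lower, and the hexokinase Hk1 was higher at 0.44.

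Glutathione genes had a median of 0.01 over 20 measured genes. Of these, 1 was at least 1.5-fold higher and 0 lower, against 1.02% and 1.33% of all measured genes. That gene was Ggct, the gamma-glutamylcyclotransferase of glutathione breakdown, with 9.87 FPKM in DMSO and 17.6 in GW3965 (0.78). It had p = 0.0152 and q = 0.922 in the authors' deposited table, without a call. Slc7a11, the cystine importer, had 8.97 and 13.3 FPKM (0.52), and Anpep, which trims cysteinylglycine, had 10.5 and 7.11 (-0.50). The rate-limiting ligase subunits Gclc at -0.14 and Gclm at -0.01 were near 0. Among 4 measured microsomal transferases and related genes the median was 0.07, and Mgst1 had 667 and 677 FPKM, a level similar to that of Gstp1. Of 9 measured genes for methyl, acetyl and amino acid conjugation none passed, with a median of -0.12. Hnmt, the histamine methyltransferase, stood at 0.47 and Glyat, the glycine acyltransferase, at -0.44.

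Exporters of conjugates had a median of 0.28 over 9 genes. Of these, 1 was at least 1.5-fold higher and 0 lower, against 1.02% and 1.33% of all measured genes. The gene past the threshold was Abcb1a, a multidrug transporter, at 13.8 FPKM in DMSO and 28.7 in GW3965 (1.00). For Abcb1a the authors' deposited table held p = 0.50 and a q of 1.000. Abcc2, the canalicular pump for glucuronide and glutathione conjugates, had 52.7 and 76.1 FPKM (0.52). Abcc3, its basolateral relative, had 95.8 and 92.5 (-0.05).

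**Figure D4:**
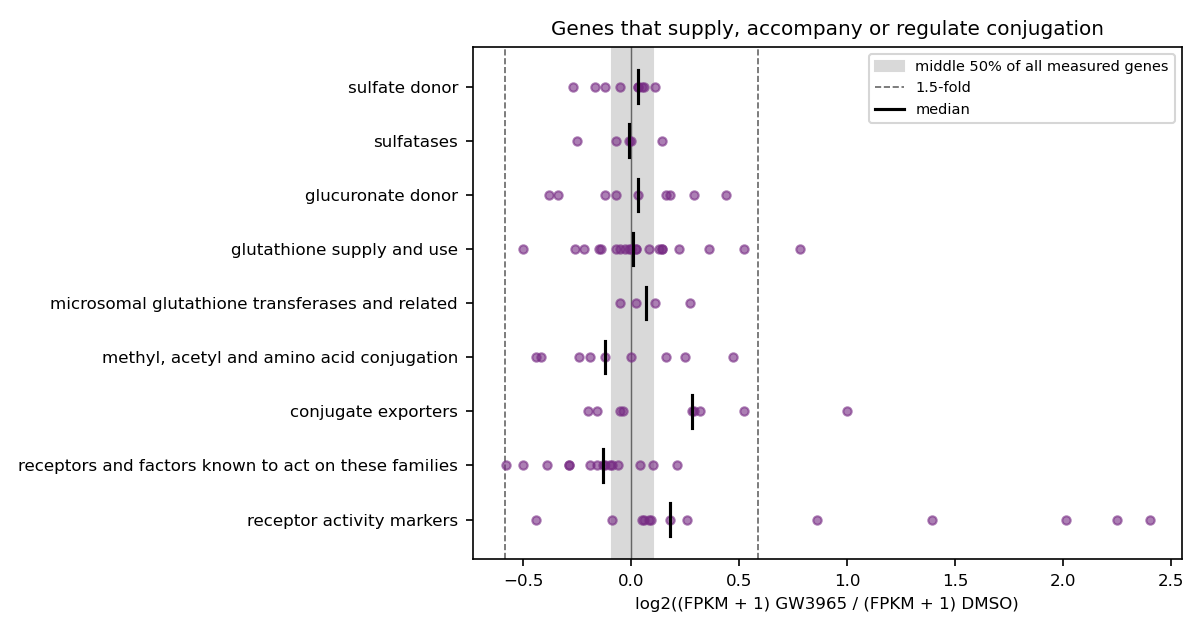
Log2 ratio of GW3965 to DMSO for the measured genes (points) of 9 lists around the conjugation enzymes, with black bars for list medians, dashed lines at 1.5-fold and a grey band for the middle 50% of all measured genes. The medians of the 3 donor lists lie between 0.01 and 0.03, and that of the exporters at 0.28.

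Of 15 measured receptors and factors known to act on these families, 12 had a log2 ratio below 0, against 5559 of all 11796 measured genes. Their median was -0.13 and none was past the threshold. Nr1h4, the bile acid receptor FXR, was just short of it, with 4.47 FPKM in DMSO against 2.65 in GW3965 (-0.58). Nfe2l2, which encodes NRF2, had 144 and 102 (-0.50). Hnf4a, a factor of hepatocyte identity, had 49.4 and 37.4 FPKM (-0.39). The drug-sensing receptors were low, with Nr1i2 (PXR) at 1.72 and 1.23 FPKM and Nr1i3 (CAR) at 0.197 and 0.152. Esr1, the estrogen receptor, was under the minimum at 0.612 and 0.468. Among 13 measured genes that report on receptor activity, 5 were at least 1.5-fold higher and 0 lower, against 1.02% and 1.33% of all measured genes. As known LXR targets were placed on this list, part of that difference was fixed in advance. The median of the 13 was 0.18. The 5 higher genes were the LXR targets Abca1, Scd1 and Srebf1, the aryl hydrocarbon receptor target Cyp1a2 and the heme oxygenase Hmox1. The authors' deposited table called 4 of these 5, against 0.285% of all genes tested there, but not Srebf1, which had q = 0.709. Cyp1a1, the other aryl hydrocarbon receptor target listed, was under the minimum at 0.0899 and 0.140 FPKM. Cyp2b10 (-0.09), a CAR target, and Cyp3a11 (0.05), a PXR target, were near 0, and the NRF2 target Nqo1 was at 0.26. Srxn1 and Txnrd1, also on the list, were at 0.09 and 0.18.

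Markers of the labelled cell type were present in both libraries. Of 10 hepatocyte markers with a usable value 9 were measured, with a median of 0.07, among them Apoa1 at 598 FPKM in DMSO and 660 in GW3965. Their levels differed widely. Asgr1 had only 10.1 FPKM in DMSO and 11.4 in GW3965, Cyp2e1 had 6.53 and 6.90, and Cps1 was lower still. Apoa1, Apoa2, Ttr and Fgb lay above the endothelial marker Cdh5 (52.9 and 65.2) and the macrophage marker Cd14 (111 and 99.3). The remaining measured hepatocyte markers lay below both in each library. The albumin gene Alb and Trf carried the table's mark for too many fragments and were left out, and Tat was under the minimum at 0.962 and 0.447. Endothelial markers were above 0 in 5 of 5 measured genes, against 52.9% above 0 over all measured genes. Their median was 0.27 and their summed level 121 FPKM in DMSO and 144 in GW3965. The authors' deposited table tested 4 of these 5 and called none. Stellate and fibroblast markers were above 0 in 4 of 5, with a median of 0.26 and sums of 21.2 and 26.3. Macrophage markers had a median of -0.10 over 5 genes and sums of 193 and 200. Of the cholangiocyte markers 2 of 4 were measured, both above 0, and of the lymphoid markers 1 of 3, Ptprc, at -0.06. Apart from Alb and Trf, whose GW3965 value the table lists at 0, no marker was listed at 0. The hepatocyte sum was 4005 FPKM in DMSO and 3519 in GW3965, of which the fibrinogen chain Fgb alone made up 2458 and 2000. Endothelial and stellate markers lay on the same side of 0 as the Ugt1 genes, Gsta1, Sult1d1 and Sult1e1, and their part in those values was not tested.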

How the data were processed

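RNA of 2 hepatocyte cultures, DMSO and GW3965, was sequenced from TruSeq libraries, per the labels' protocols. The submitters' processing notes name Cuffdiff, Cufflinks 2.0.2, TopHat2 2.0.6 and CASAVA, and the builds NCBIM37 and mm9. How each tool was set, strand use and scaling: not given in the sources used here. Values deposited are FPKM, 1 column per library, per the file headers. The authors' deposited table also holds a p-value and q-value per gene and a score, the Cuffdiff test statistic, whose size gave the standard error of a log2 fold. Calls had q of at most 0.0470.

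The 7 genes with the mark for too many fragments, no member among them, were left out. No test was run on 1 library per group. Members and lists were chosen with earlier results of these data known. Named were Sult1e1, members past 1.5-fold, the most abundant and most different member of each subfamily, other members where order or position needed them, and list genes past 1.5-fold or with the largest ratios, while further list genes were picked after their values were seen. Table starts were counted from 0, and 1 was added, because this made locus and GENCODE gene lengths equal for 58.5% of 19844 single-gene loci. Depth came from low values: with GW3965 taken as 1.24 times as deep, 48.3% of 5295 low ratios matched ratios of small whole numbers to 0.1%, against 2.27% when moved by 3%. Transcript lengths (less 155 bases for the fragment) and shared 25-base words came from GENCODE M21, which is GRCm38 and matched 59 of 60 members, and promoters from RefSeq GRCm38.p6, with 52 members. Counting intervals treat estimated fragments as independent. The size rule was tested on simulated data. Alternatives were other pseudocounts (0.1, 5), other minimum FPKM (none, 5), a 2-fold threshold, equal sums, centring, genes the authors tested, and leaving out members that share a locus or at least 50% of their words, or, added after seeing the data, Sult5a1. The hexamer AGGTCA, the 60-base windows, the 1.1-fold and 1.25-fold shares and the Sult sum without its leading genes were also chosen after seeing the data. Software was scipy 1.17.1, matplotlib 3.10.9, pandas 2.3.3 and numpy 2.4.6 under Python 3.11.15.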

Additional observations from a re-analysis of the deposited data

How the results depend on the processing

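Of 367 recomputed counts and medians 355 stayed within 1.5 times the count, or within the typical counting error of a single member for a median. Much of this was fixed in advance. Many counts were 0 in both settings, equal sums and centring hardly shift a ratio, and all measured members were tested by the authors. With a pseudocount of 0.1, 1 member was lower, the sulfotransferase Sult2a1, so that the count was 1 for all members and 1 for the Sult genes, and 1 gene each of the receptors (Nr1h4) and of the receptor activity markers (Nr0b2) was lower. Centring on the median of all genes also gave 1 lower receptor, Nr1h4. At a 2-fold threshold 1 member and 1 Sult gene were higher, Sult1e1, and 0 glutathione genes. A minimum of 5 FPKM moved the Sult median to 0.69 and that of the activity markers to 0.86, since the low genes drop out. Without the genes that share a locus or sequence, which removes the Ugt1 genes, the median was -0.13 for all members and -0.28 for the Ugt genes. No measured member changed sign. For the pseudocounts this was fixed in advance, as adding the same number to both values cannot change a sign. Equal sums and centring shifted ratios only slightly. Sult1e1 ran from 1.18 with a pseudocount of 5 to 1.82 without one, an alternative added after seeing the data, and Sult1d1 from 0.59 to 0.72. No paired analysis was possible because only a single library was made for DMSO and for GW3965. Depth limits the 22 members under 1 FPKM.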
